A study of Mus musculus with 10 samples.

Results

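The 299 probe sets that carry the symbol of a single microRNA gene, the Mir181 genes excepted, were examined among the 34760 probe sets of an expression array. The rule that chose them reads the symbol alone and uses no measured value, although earlier results of these data were known when it was set. They represent 294 of the 19937 genes named on the array, of which 290 are hairpin genes and 4 are the longer transcripts Mir17hg, Mir99ahg, Mir670hg and Mir100hg. A further 37 probe sets name a microRNA gene beside another gene and were left out.

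RNA came from sorted CD4+ CD8+ double-positive (DP) thymocytes of individual 8-week-old mice, with 1 array per mouse and 10 arrays in all. Every mouse carried Cd4-cre, a recombinase gene driven by Cd4 regulatory sequence, and the controls (WT, n = 3) carried it with wild-type E protein genes. E2AKO mice (n = 2) carried E2Aflox/flox, HEBKO mice (n = 2) carried HEBflox/flox, and DKO mice (n = 3) carried both pairs of floxed alleles. E2A is encoded by Tcf3 and HEB by Tcf12, and the comparisons ask which precursor transcripts differ when DP cells lose one or both of these transcription factors. The mice were separate animals, so each p-value measures the spread between mice.

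MicroRNA genes are transcribed as long primary transcripts, many of them inside introns of protein-coding genes. The nuclease Drosha with its partner Dgcr8 cuts out a hairpin precursor, Xpo5 exports it, and Dicer1 trims it to a short mature strand that guides an Argonaute protein to target messages. The seed, bases 2 to 8 of the mature strand, does most of the pairing to targets. In thymocytes microRNAs are known to adjust the signal threshold of the T cell receptor and the passage from the DP stage to mature T cells. The probe sets here read cRNA made from total RNA. They cannot tell a hairpin from the longer transcript or host intron around it, and mature microRNAs were not measured.

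The mature strands of the 5 hairpin genes that passed the test in at least 1 comparison are printed first, because the results below turn on them. Sequences are RNA as RefSeq gives them on mouse build GRCm38, 5′ to 3′, with the seed in capitals. Of the 294 symbols, 264 had a mature strand and 253 a hairpin in that table. Mir342 lies on the plus strand of chromosome 12 and gives miR-342-5p (chr12:108658638-108658659) and miR-342-3p (chr12:108658680-108658702).
miR-342-5p: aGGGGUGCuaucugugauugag
miR-342-3p: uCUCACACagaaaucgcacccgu
Mir142 lies on the plus strand of chromosome 11 and gives miR-142a-5p (chr11:87756867-87756887) and miR-142a-3p (chr11:87756903-87756925).
miR-142a-5p: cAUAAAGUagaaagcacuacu
miR-142a-3p: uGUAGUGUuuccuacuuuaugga
Mir680-2 is on the X chromosome (chrX:144297790-144297810, plus strand) and Mir713 on chromosome 13 (chr13:62760807-62760825, plus strand).
miR-680: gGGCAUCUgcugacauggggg
miR-713: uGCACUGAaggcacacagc

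Mir128-2 has a second copy of its gene, Mir128-1, whose hairpin yields the same 3p strand. Mir128-2 lies on the minus strand of chromosome 9 (hairpin chr9:112118636-112118711) inside Arpp21, and Mir128-1 on the plus strand of chromosome 1 (hairpin chr1:128202361-128202430) inside R3hdm1. The hairpins are shown with the shared strand miR-128-3p in capitals, since 1 of the 2 genes was called below and the other was not.
Mir128-1 hairpin: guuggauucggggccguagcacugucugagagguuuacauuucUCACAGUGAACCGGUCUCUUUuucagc
Mir128-2 hairpin: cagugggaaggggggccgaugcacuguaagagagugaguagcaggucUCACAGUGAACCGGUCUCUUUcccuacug
Aligned over 77 positions the hairpins are identical at 55, or 71.4%. Their 5p strands differ in letters but share the seed GGGGCCG.
miR-128-3p: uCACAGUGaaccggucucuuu
miR-128-1-5p: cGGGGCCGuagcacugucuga
miR-128-2-5p: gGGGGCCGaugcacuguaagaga

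Most precursor probe sets gave low signal in DP thymocytes. Levels are given as log2 intensity, and a probe set was tested if it reached the 40th percentile of the array, 6.03 to 6.13 on this scale, in at least 2 arrays. On each array 94 to 102 of the 299 lay above it, or 31.4% to 34.1%, where 60% of all probe sets do. In all 10 arrays 83 were above, in none 185, and in some 31. The 185 had mean WT levels of 3.04 to 5.94 (median 4.34), and the 83 had 6.18 to 9.61 (median 7.38). By genotype, those above in every array of the group numbered 88 in WT, 90 in DKO, 94 in E2AKO and 95 in HEBKO. The groups hold unequal numbers of arrays, so these counts are not compared.

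**Figure D1:**
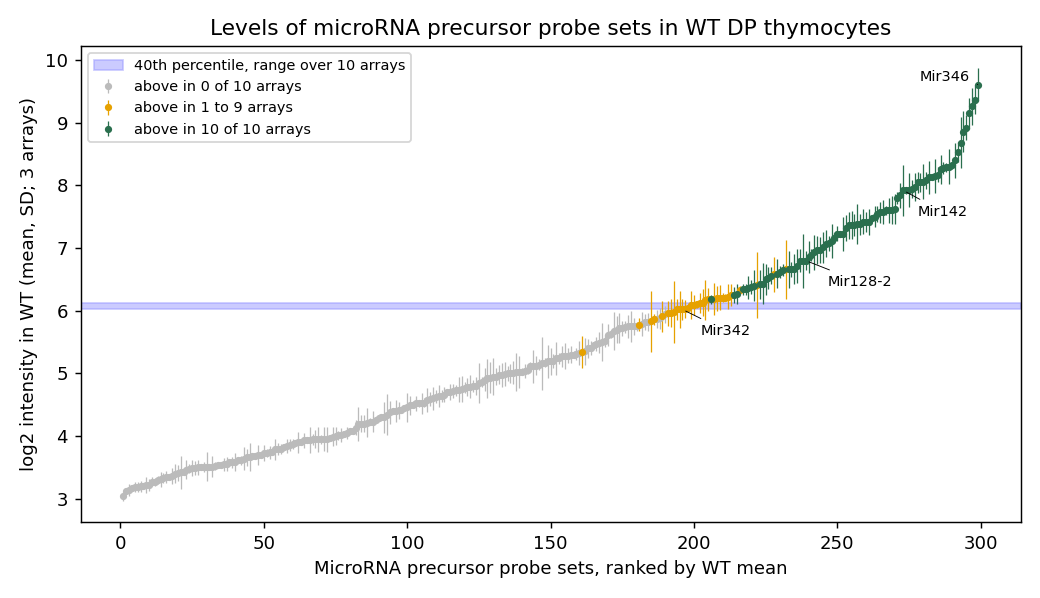
Mean log2 intensity in WT (y axis; points are means and bars SD over 3 arrays) of the 299 microRNA precursor probe sets ranked by that mean (x axis), coloured by how many of the 10 arrays lay above the 40th percentile (band). The 185 grey probe sets stay below the band, the 83 green ones lie above it in every array, and Mir342, at a mean of 6.02, lies just under it.

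The hairpin genes above the percentile in all 10 arrays included many known in lymphocytes. They were the cluster genes Mir106b, Mir93 and Mir25, Mir15a and Mir16-1, Mir15b, Mir23a, Mir27a and Mir24-2, Mir191 and Mir425, Mir99b, Mirlet7e and Mir125a. Mir142, a marker of blood cells, Mir150, a microRNA of resting lymphocytes, and Mir128-1, Mir128-2, Mir139 and Mir326 were among them too. From the imprinted gene domain of chromosome 12 came Mir134, Mir337, Mir341, Mir431, Mir485, Mir540, Mir665, Mir666, Mir667, Mir668, Mir673 and Mir679. Of longer genes there, Meg3 was below the percentile in every array, at 5.45 to 5.92, while Rtl1 was above it in all 10. Rian, which holds Mir341, was on the array but too low to be tested. Copies of 1 microRNA at different loci were above the percentile as Mir138-1 and Mir138-2, Mir194-1 and Mir194-2, Mir7-1 and Mir7-2, and Mir680-2 and Mir680-3. The others with lower numbers were Mir129-1, Mir143, Mir149, Mir185, Mir187, Mir188, Mir199a-1, Mir200a, Mir210, Mir211, Mir212, Mir219a-1, Mir296, Mir30d and Mir92b, with Mirlet7i. Those with higher numbers were Mir320, Mir328, Mir330, Mir338, Mir345, Mir346, Mir375, Mir378a, Mir383, Mir423, Mir455, Mir483, Mir504, Mir505, Mir551b, Mir598, Mir615, Mir670, Mir674, Mir677, Mir688, Mir692-1, Mir697, Mir3068, Mir3107 and Mir6516. The 1 long transcript above in all arrays was Mir99ahg, by 1 of its 4 probe sets.

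For the 31 probe sets above in only some arrays, the count of arrays is not a measure of change. Mir17hg, Mir484, Mir680-1 and Mir687 were above in 9, Mir124a-2, Mir30e and Mirlet7f-1 in 8, and Mir26b and Mir331 in 7. Mir152, Mir681, Mir694 and 1 of the 3 Mir713 probe sets were above in 6, and Mir103-2, Mir16-2, Mir1839, Mir449a and Mir497 in 5. Mir195a, Mir215 and Mir342 were above in 4 arrays, Mir155 and Mir193a in 3, and Mir127, Mir335 and Mir370 in 2. Mir196b, Mir19b-1, Mir297b, Mir9-1 and Mirlet7d were above in 1 and were not tested. The 185 that never reached it included hairpins known from T cells. Mir17, Mir18, Mir19a and Mir20a of the miR-17~92 cluster, with WT means of 5.33, 4.95, 3.64 and 4.64, were among them although their long transcript Mir17hg was tested. Mir146 (3.43) and Mir146b, Mir29a and Mir29b-1, and Mir182, Mir96 and Mir183 were below as well.

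The brightest member in WT was Mir346, at 9.85, 9.32 and 9.68 in WT 1 to 3, or the 90.0 percentile of its arrays, and its means in E2AKO, HEBKO and DKO were 9.56, 9.50 and 9.50. The next were Mir598 (WT mean 9.37), Mir328 (9.26), Mir341 (9.15), Mir320 (8.92), Mir667 (8.86), Mir15a (8.68), Mir139 (8.53), Mir692-1 (8.40) and Mir680-2 (8.32). Probe brightness differs between sequences, so this is an order of signals and not of amounts of RNA. The signal followed base composition. Over the 253 members with a hairpin sequence, the share of G and C and the mean WT level had a Pearson r of 0.74 and a Spearman rho of 0.75, across members that share arrays and are not independent. The median share of G and C was 57.0% in the 65 above in all arrays, 51.1% in the 27 above in some and 45.1% in the 161 above in none. Among the 88 tested members with a sequence, the correlation with level was 0.42 (Pearson) and 0.43 (Spearman).

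**Figure D2:**
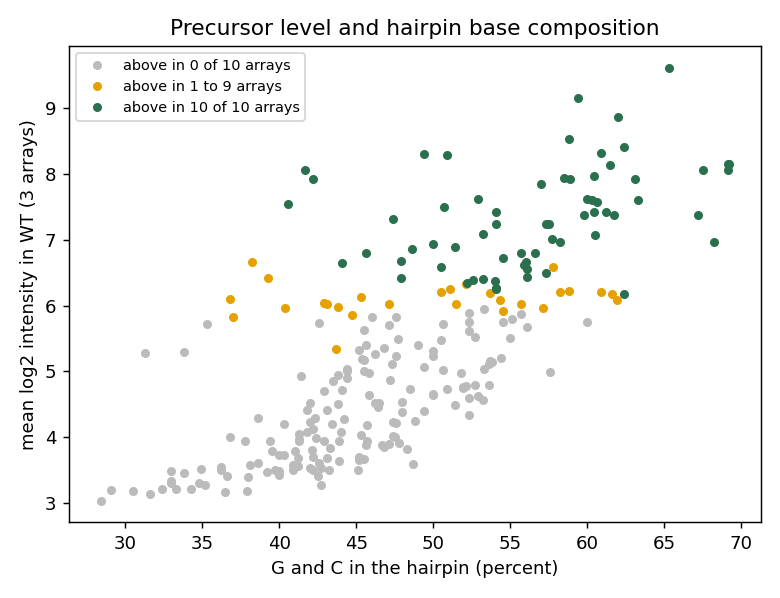
Mean log2 intensity in WT (y axis, 3 arrays) against the percent of G and C in the hairpin (x axis) for the 253 members with a hairpin sequence, coloured by how many arrays lay above the 40th percentile. Levels are higher where the share of G and C is higher, with a Pearson r of 0.74 across members.

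The arrays resembled each other closely, with correlations of log2 values across genes of 0.98 to 0.989 within genotypes, yet the members moved as a block between WT mice. Against the WT mean, 87 of the 109 tested members were higher in WT 1 and 20 were higher in WT 2, with median shifts of 0.15 and -0.15. The median shift of all genes tested was 0 and 0.02 in the same arrays. The difference between WT 1 and WT 2 also followed the share of G and C (Pearson r 0.54 and Spearman rho 0.39 over 88 members). Tcf3 and Tcf12 messages were lower in DKO than in WT, at 63.5% and 45.8% of the WT intensity (limma adjusted p of 0.00256 and 3.07e-05). Tcf3 was at 68.9% of WT in E2AKO and Tcf12 at 69.6% in HEBKO, and neither of these differences passed the test. Which exons Cre removes is not stated in the labels, and this signal therefore does not measure intact message. None of 10 DP thymocyte markers lay below the percentile in all arrays.

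Loss of both factors changed 2 of the 109 tested precursors. Mir342 rose to 159% of its WT intensity and Mir128-2 fell to 68.2%. That is 1.83% of the members, against 13.6% of all 13138 genes tested, 8.18% higher and 5.41% lower (limma, Benjamini-Hochberg adjusted p under 0.05 over all genes). At an unadjusted p under 0.05 there were 12 members, or 11% against 25.7% of all genes. The median difference over the members was -0.06 with 79 below 0, beside -0.01 over all genes, and without WT 1 it was 0 with 55 of 108 below 0. Without WT 2 there were 5 called members, the others being Mir23a, Mir27a and Mir455.

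Mir342, the hairpin of a microRNA that is abundant in mature lymphocytes, was the 1 precursor that rose. It stood at 5.92, 5.93 and 6.22 in WT 1 to 3, 6.04 and 5.86 in the E2AKO arrays, 5.94 and 5.67 with HEB lost, and 6.93, 6.76 and 6.37 in DKO 1 to 3. Every DKO array lay above every other array, and DKO 3 was the closest to WT 3. The difference from WT was 0.67 ± 0.15 (log2, SE; 95% interval 0.34 to 0.99; limma adjusted p = 0.0113). Only WT 3 among the 7 arrays outside DKO reached the 40th percentile, so the size rests on signal near or below it outside DKO, and Mir342 was tested only because of its DKO arrays.

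The gene that holds Mir342 on the same strand, Evl, an actin-regulating protein of the Ena/VASP family, rose with it. Evl was at 9.29, 8.52 and 9.26 in WT, at 9.09 and 9.17 in the E2AKO arrays, at 9.22 and 9.04 in HEBKO, and at 10.64, 10.40 and 10.61 in DKO. The DKO arrays did not overlap with any other group, and the difference from WT was 1.53 ± 0.18 (limma adjusted p = 0.000144). In the same arrays the summed intensity of 11 markers of mature single-positive T cells was 5750 to 7950 in DKO and 1710 to 1970 in WT, with 9 of 10 tested markers called higher and 1 lower. None of the 11 was below the percentile in every array. The sum of 9 double-negative stage markers was 2200 to 2890 in DKO and 1970 to 2310 in WT. Without its brightest member, Notch1, that sum was 1330 to 1700 against 968 to 1110, without overlap. Of the 7 tested, Il2ra and Dtx1 were called higher, at 2.17 and 1.57, and Notch3 lower, at -0.45. In bulk RNA, a different share of cells and a different amount of RNA per cell cannot be told apart. The part of these markers in the Mir342 and Evl differences was not tested.

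Mir128-2, the hairpin of a microRNA best known from neurons, was the 1 precursor that fell. It stood at 6.92, 6.63 and 6.85 in the WT arrays, 6.95 and 6.94 with E2A lost, 6.53 and 6.40 with HEB lost, and 6.23, 6.29 and 6.23 with both lost. The 3 DKO arrays were the lowest of the 10 and just above the percentile, and the 2 HEBKO arrays lay between them and the WT arrays. The difference from WT was -0.55 ± 0.10 (95% interval -0.76 to -0.34; limma adjusted p = 0.00281). Its host Arpp21, a phosphoprotein that binds RNA and is abundant in DP thymocytes, was at 11.35, 11.57 and 11.58 in the WT arrays, 11.40 and 11.62 with E2A lost, 10.49 and 11.24 with HEB lost, and 9.40, 9.86 and 9.57 with both lost. Arpp21 thus showed the same order of groups, with a difference of -1.89 ± 0.18 (limma adjusted p = 3.5e-05), or 26.9% of the WT intensity. The summed intensity of 10 DP thymocyte markers also went down, from 58800 to 60400 in WT to 35300 to 39400 in DKO, with 7 of the 10 called lower, and its part in the Mir128-2 difference was not tested.

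The second source of miR-128-3p was not called. Mir128-1 stood at 6.60, 7.07 and 7.11 in the WT arrays, 7.02 and 7.08 with E2A lost, 6.90 and 6.89 with HEB lost, and 6.75, 7.04 and 7.08 with both lost. The groups overlapped, and the DKO difference was 0.03 ± 0.14 (95% interval -0.27 to 0.33; limma adjusted p = 0.919). Its host R3hdm1, named here after its values were seen, was at -0.22 ± 0.10 and not called (limma adjusted p = 0.201). Within arrays, Mir128-2 minus Mir128-1 was 0.32, -0.44 and -0.26 in WT and -0.52, -0.75 and -0.85 in DKO, so all 3 DKO arrays were below all 3 WT arrays. The mean of this difference was 0.58 lower in DKO (contrast -0.58), with a two-sided exact permutation p of 0.1, the smallest that 3 against 3 arrays can give. As the pair was chosen with the change of Mir128-2 known, this p is no independent support.

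**Figure D3:**
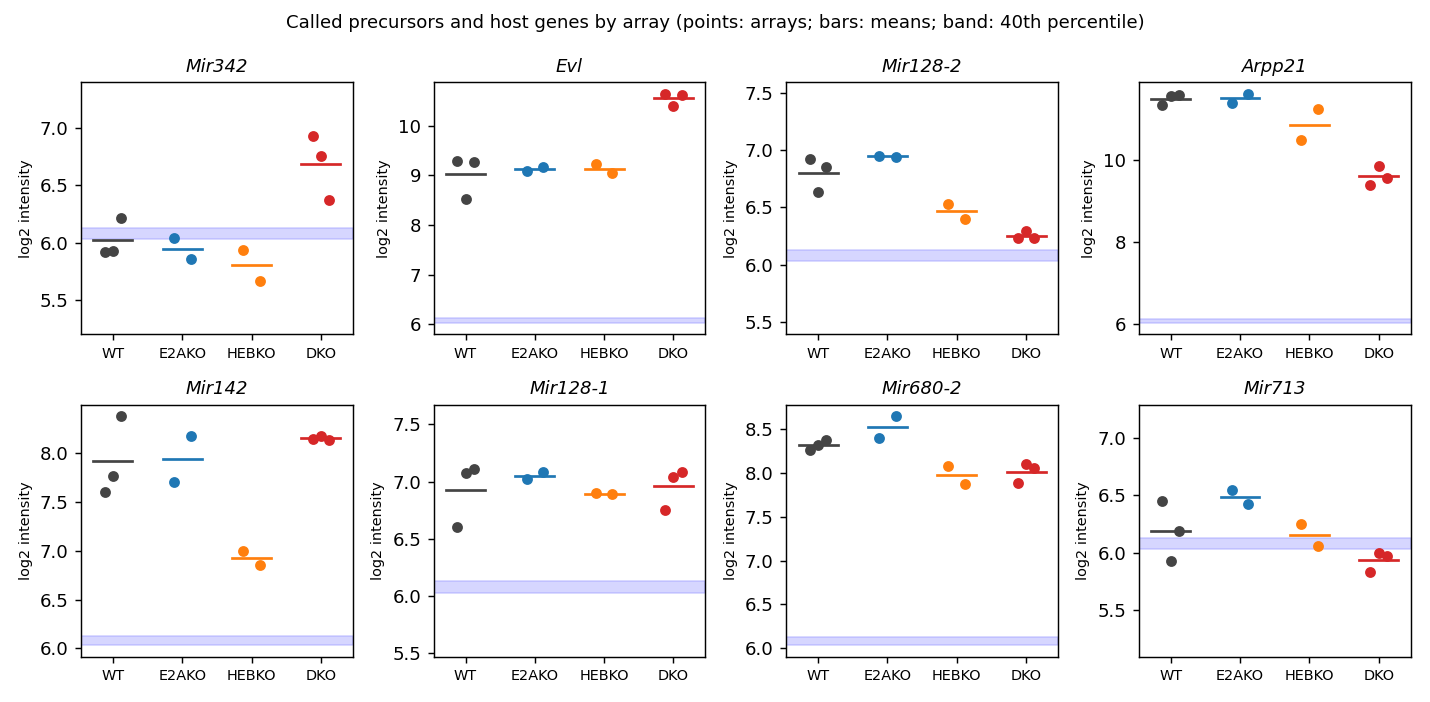
Log2 intensity (y axes) by genotype (x axes) of the 5 called precursors, Mir128-1 and the host genes Evl and Arpp21; points are arrays, horizontal bars are group means and the band is the range of the 40th percentile. DKO arrays are the highest for Mir342 and Evl and the lowest for Mir128-2 and Arpp21, HEBKO arrays are the lowest for Mir142, and the genotypes overlap for Mir128-1.

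Of the other members with the largest DKO differences, none passed the test. Mir23a, a hairpin of the cluster with Mir27a and Mir24-2, was at 6.95, 6.37 and 6.65 in WT and at 6.29, 6.18 and 6.19 in DKO. These arrays did not overlap, and the difference was -0.43 ± 0.14 (limma adjusted p = 0.0554). Mir27a was at -0.32 ± 0.14 (adjusted p = 0.179 in limma), and Mir24-2 of the same cluster at 0.01 ± 0.14. HEBKO values for the 3 were -0.38, -0.32 and 0.14, from comparisons that share the WT arrays. Mir17hg, the transcript that carries the miR-17~92 hairpins, was at 5.88, 6.52 and 6.11 in WT and 6.75, 6.53 and 6.32 in DKO, a difference of 0.37 ± 0.20 with overlapping arrays.

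The remaining members among the 12 largest DKO differences were smaller than 0.35. Mir106b was at -0.33 and Mir15b at 0.32. Mir680-2 was at -0.30, Mir431 at -0.29, Mir674 at -0.28, Mir99ahg at -0.27 and Mir713 at -0.26. Mir15b was higher than WT in each knockout, by 0.32 in DKO, 0.42 in HEBKO and 0.39 in E2AKO, without passing the test in any. The 3 comparisons share WT arrays, so these values are not independent.

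**Figure D4:**
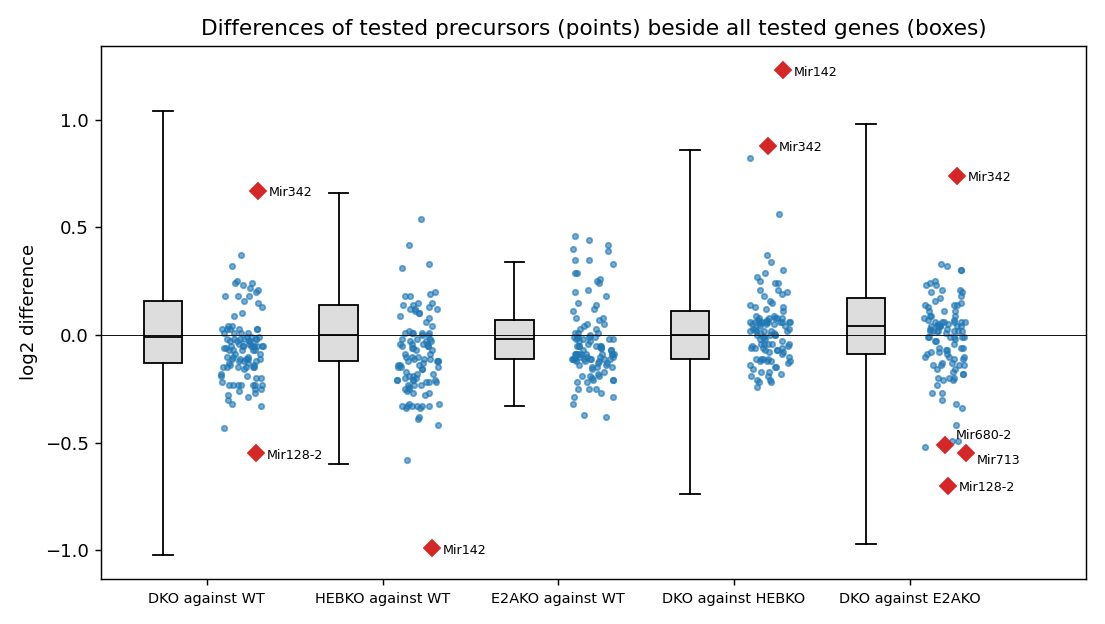
Log2 differences (y axis) of the 109 tested precursors (points) in each of 5 comparisons (x axis), beside all 13138 genes tested (boxes: quartiles and median; whiskers from the 1st to the 99th percentile); red diamonds are precursors past an adjusted p of 0.05 and horizontal positions within a comparison are arbitrary. The called precursors are Mir342, Mir128-2, Mir142, Mir680-2 and Mir713.

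With HEB alone lost, 1 precursor was called lower, Mir142, at 50.3% of its WT intensity. That is 0.917% of the members against 0.906% of all genes tested, 0.632% of them in the lower direction, so the share was that of the background. Mir142 encodes a microRNA found throughout blood cell lineages. It stood at 7.60, 7.77 and 8.38 in the WT arrays, 7.71 and 8.18 with E2A lost, 7.0 and 6.85 with HEB lost, and 8.15, 8.18 and 8.14 with both lost. Both HEBKO arrays were below the other 8, and the DKO arrays lay within the WT range. The HEBKO difference was -0.99 ± 0.20 (95% interval -1.43 to -0.55; limma adjusted p = 0.0473), and in DKO the difference was 0.24 ± 0.18 (adjusted p = 0.464).

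DKO exceeded HEBKO for Mir142 by 1.23 ± 0.20 (limma adjusted p = 0.00561). The departure of DKO from the sum of the single differences was 1.20 ± 0.28 and did not pass the test (limma adjusted p = 0.111). By this interaction no member was called, against 0.632% of all genes, with 8 members at an unadjusted p under 0.05 (7.34% against 8.72% of all genes). The HEBKO call was near the threshold, and it was lost in 11 of 20 alternatives, among them leaving out WT 1 or WT 3, either HEBKO array or any DKO array. The difference stayed between -1.29 and -0.76 in all 20. Without WT 2, Mir455 was called beside it, for 2 members in all. No gene of the table spans Mir142 on its strand, so it has no host value here.

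Others beyond 0.5 in HEBKO were Mir103-2 at -0.58 ± 0.23 and Mir17hg at 0.54 ± 0.22, and neither was called (limma adjusted p = 0.236 for Mir103-2). The 109 members had a median of -0.11 in HEBKO, with 79 below 0, where all genes had 0. Without WT 1 it was -0.03 with 62 of 108 below 0. In HEBKO 1 and HEBKO 2 the members' median shifts from the WT mean were -0.06 and -0.17.

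Loss of E2A alone left no member called, as it left 0% of all genes. At an unadjusted p under 0.05 limma gave 6 members, or 5.5% against 3.18% of all genes, and the smallest adjusted p among the 109 was 0.998. The largest difference was that of Mir30e, at 0.46 ± 0.15, named here after its values were seen. The members' median was -0.07, with 77 below 0, beside -0.02 for all genes. Mir342, Mir128-2 and Mir142 differed from WT by -0.07, 0.15 and 0.03 in E2AKO, with 95% intervals of -0.43 to 0.29, -0.09 to 0.38 and -0.41 to 0.47.

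The DKO arrays were also set against each single knockout. Against HEBKO, 2 members were called, Mir142 and Mir342 (1.83% against 3.63% of all genes, and 2.15% in the higher direction), with Mir342 higher by 0.88 ± 0.17 (limma adjusted p = 0.0121). Without HEBKO 2 neither passed. Mir128-2 was at -0.22 ± 0.11 in this comparison (adjusted p = 0.386, limma; 95% interval -0.46 to 0.02).

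Against E2AKO, 4 members were called (3.67% against 9.07% of all genes), 1 higher and 3 lower, where 5.1% and 3.97% of all genes were. Mir342 was higher by 0.74 ± 0.17 (limma adjusted p = 0.0156), and Mir128-2 was at -0.70 ± 0.11 (limma adjusted p = 0.00179). The other 2 were called in this comparison and in none of the rest. Mir680-2 stood at 8.26, 8.32 and 8.38 in the WT arrays, 8.40 and 8.65 with E2A lost, 8.08 and 7.88 with HEB lost, and 7.89, 8.10 and 8.06 with both lost, a difference of -0.51 ± 0.12 from E2AKO (limma adjusted p = 0.0178). Its HEBKO and DKO arrays lay below its WT and E2AKO arrays. Mir713 had 3 probe sets. The tested one stood at 6.55 and 6.42 in E2AKO and 5.83, 6.00 and 5.97 in DKO, a difference of -0.55 ± 0.14 (limma adjusted p = 0.0325). The call was lost in 7 of 18 alternatives, with every probe set fitted and without WT 3, either E2AKO array or any DKO array. All 3 DKO arrays were under the percentile, and the other 2 probe sets, with WT means of 5.11 and 5.19, were never above it.

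Without E2AKO 2, 1 member remained past the test in the comparison of DKO with E2AKO, and without E2AKO 1 or DKO 1, 2 members did. The Mir342 call was lost without E2AKO 1, E2AKO 2 or DKO 2, and that of Mir680-2 without E2AKO 2 or DKO 1. Mir128-2 kept its call in all 19 alternatives that tested it.

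Host genes gave a second view of the tested precursors. Of 88 tested members with a hairpin sequence, 49 lay in a gene of the RefSeq table or of a list of known hosts, and 39 in none found. For 34 of them the host was tested as well, with 25 host genes in all. In 25 pairs the host is on the same strand, and in 9 the table gives no strand for the host. The 9 include the Rtl1 pairs, where the microRNAs are known to lie antisense to the gene.

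In DKO, 3 of the 25 hosts were called, Evl, Arpp21 and Tango2, a share near the 13.6% of all genes. The third was named after its values were seen, and rose by 0.37 ± 0.11 (limma adjusted p = 0.0389) while its member Mir185 was at -0.20 ± 0.11 (adjusted p = 0.284 in limma). Precursor and host had the same sign in 20 of 34 pairs. This count and the correlations that follow include the antisense Rtl1 pairs, where Rtl1 is not the transcript that carries the hairpin. Across pairs, which share arrays and in part hosts, Pearson's r was 0.65 and Spearman's rho 0.24. Without Mir342 and Mir128-2 it was 0.07 over 32 pairs, so the relation rested on these 2, and no other host moved by more than 0.37. The host Mcm7, a helicase of DNA replication, was at -0.15 ± 0.15 in DKO, beside Mir106b at -0.33, Mir93 at -0.13 and Mir25 at -0.05. Smc4, a condensin, was at 0.08 ± 0.08 beside Mir15b at 0.32 and Mir16-2 at -0.07. Rtl1, which lies antisense to Mir431, was at -0.04 ± 0.10 beside Mir431 at -0.29. Over the same 34 pairs the sign was shared in 17 in HEBKO (Pearson r 0.14) and 25 in E2AKO (Pearson r 0.36). No host was called in either. In HEBKO, Mcm7 was at 0.41 ± 0.17, opposite in sign to Mir106b, Mir93 and Mir25 at -0.26, -0.14 and -0.12.

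**Figure D5:**
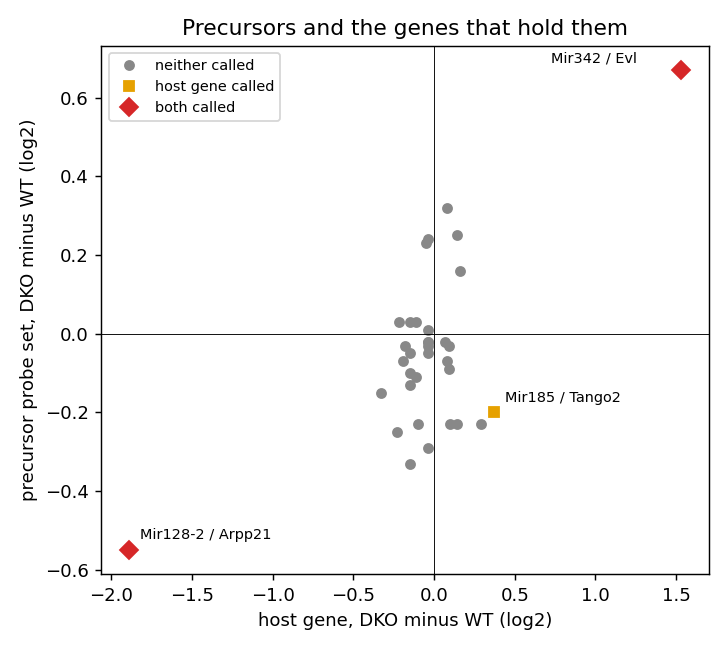
DKO minus WT log2 difference of a precursor (y axis) against that of the gene whose span holds it (x axis) for the 34 pairs with both tested. The antisense Rtl1 pairs are included. The pairs Mir342 with Evl and Mir128-2 with Arpp21 lie apart at the upper right and lower left, and the other 32 show a Pearson r of 0.07.

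Members were then grouped by the seed their mature strands share. There were 11 seeds with at least 2 tested loci. The most tested loci, all 6, were in the group of miR-15 and miR-16, microRNAs known to restrain the cell cycle. Their strands show how the seed AGCAGCA recurs while the remaining bases vary.
miR-15a-5p: uAGCAGCAcauaaugguuugug
miR-15b-5p: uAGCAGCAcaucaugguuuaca
miR-16-5p: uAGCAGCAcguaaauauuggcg
miR-195a-5p: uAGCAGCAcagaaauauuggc
miR-497a-5p: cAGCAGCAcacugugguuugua
The 6 differed from WT by -0.15 to 0.32 in DKO and -0.14 to 0.42 in HEBKO, and none was called. Mir15b had the highest value in both. Its cluster partner Mir16-2 was at -0.07 in DKO and 0.18 in HEBKO, and the difference between the 2 hairpins was not tested. Mir15a and Mir16-1 were at -0.03 and -0.15 in DKO.

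The let-7 hairpins, which carry the seed GAGGUAG, were tested at 3 of 9 loci (Mirlet7e, Mirlet7f-1 and Mirlet7i), with DKO differences of -0.13 to -0.02. Mir106b and Mir93, which share AAAGUGC with the miR-17 strands, were the 2 tested of 6 loci. The 3 miR-680 loci were all tested and ran from -0.30 to 0.22 in DKO. Of these 4 seed groups none had a member called in DKO, while the 2 seeds of the miR-128 loci each had 1, Mir128-2.

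Clusters were taken from a list of known ones. The list leaves out Mir195a with Mir497 on chromosome 11 and the hairpins of the chromosome 12 domain. Listed clusters with at least 2 tested members numbered 7. Beside those of Mir106b, Mir15b, Mir15a and Mir23a they were Mir191 with Mir425, Mir99b with Mirlet7e and Mir125a, and Mir215 with Mir194-1. In these last 3, DKO differences were -0.10 for Mir191, 0.03 for Mir425, -0.09 for Mir99b, -0.02 for Mirlet7e, -0.25 for Mir125a, -0.05 for Mir215 and -0.05 for Mir194-1. None was called.

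A list of 60 T cell microRNA symbols had 44 on the array and 22 tested. In DKO, 1 was higher (Mir342) and 1 lower (Mir128-2), with a median of -0.08 over the list beside -0.01 over all genes, of which 13.6% were called. In HEBKO 1 of the 22 was lower (Mir142), with a median of -0.13, where 0.906% of all genes were called, and in E2AKO none was called. Mir150 was at -0.11 ± 0.11 in DKO and Mir155, which responds to antigen receptor signals, at -0.23 ± 0.12, and neither was called. Of 27 listed microRNAs of erythroid, myeloid, endothelial, epithelial, muscle and liver cells, 17 were on the array and 2 passed the intensity filter, Mir143 and Mir200a. Neither was called, at -0.15 and -0.05 in DKO. Mir144, Mir451a, Mir200b, Mir200c, Mir141 and Mir145a were below the percentile in every array. Among protein-coding markers, 5 of 7 B cell and 7 of 10 myeloid markers were below it in every array, as were 1 of 3 erythroid and 2 of 11 thymic epithelial markers. Single members carried much of 3 of these sums, so each is also given without its brightest member. For B cells the sum was 383 to 441 in DKO against 494 to 549 in WT, and without Cd79b 224 to 247 against 239 to 268. For myeloid cells it was 5300 to 6290 against 6580 to 7410, nearly all of it Ccr9, a chemokine receptor that DP thymocytes express strongly, and without Ccr9 462 to 507 against 547 to 600. For thymic epithelium it was 1070 to 1100 against 1330 to 1470, and without Cldn4 926 to 958 against 952 to 1160. Of 8 tested epithelial markers 2 were called lower in DKO and 0 higher, Cldn4 at -1.26 and Epcam at -0.54. Krt8, Aire, Dll4, Cldn3, Ccl25 and Foxn1 were at -0.37, -0.28, -0.09, -0.06, -0.03 and 0.04, and none of these was called. For erythroid cells the sum was 185 to 223 against 227 to 240, and without Slc4a1 101 to 126 against 128 to 135. Without the brightest member, DKO and WT thus overlapped for B cell and epithelial markers and not for the other 2 lists. The part of these markers in the precursor differences was not tested.

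Genes of the microRNA pathway were a list of 48 symbols, with 39 on the array and 37 tested. In DKO 5 were called, 2 higher and 3 lower, with a median of 0.01 over the list. Their share was near the 13.6% of all genes, so the list did not stand out from the background. Gemin4, a component of complexes that hold Argonaute proteins, rose by 0.48 ± 0.12 (limma adjusted p = 0.0161), and Tsn, a subunit of a nuclease that clears passenger strands, by 0.42 ± 0.10 (adjusted p = 0.0209). Xrn1, a 5′ to 3′ exonuclease, fell by 0.43 ± 0.12 (limma adjusted p = 0.0357). Ago1, an Argonaute protein, fell by 0.32 ± 0.09, and Ddx6, a helicase of message repression, by 0.28 ± 0.08 (limma adjusted p of 0.0333 and 0.0476).

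These calls depended on single arrays: none of the list was called without WT 3, DKO 2 or DKO 3, 1 without WT 1, 2 without DKO 1 and 3 without WT 2. The central enzymes were not called in DKO. Drosha was at 0.15 ± 0.09, Dgcr8 at -0.04 ± 0.10, Xpo5 at 0.15 ± 0.09, Dicer1 at -0.14 ± 0.10 and Ago2 at 0.01 ± 0.11. No gene of the list was called in HEBKO or E2AKO against WT.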

How the data were processed

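The deposited values are array intensity values on a linear scale, processed with RMA per the submitters' processing notes, with its version not given in the sources used here. They were turned to log2 with no constant. Of 34760 probe sets, 21640 had 1 gene symbol in the platform annotation, 1321 several and 11799 none. Where 1 of the 19937 genes had several probe sets, the one with the highest mean was used. Genes reaching the 40th percentile in at least 2 arrays were tested (13138). The 4 genotype means were estimated together over the 10 arrays in limma 3.58.1 (R 4.3.3). P-values are two-sided and adjusted over all genes, and steps were tested on simulated data. The number of arrays limits the precision.

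The members and lists were chosen with earlier results of these data known. Members named were those called, the 12 largest DKO differences, the 10 highest in WT, tested T cell microRNAs and listed clusters with 2 or more tested members. Other genes named were their hosts, called pathway genes, Tcf3 and Tcf12. Members above the percentile were named by rule, and other exceptions are marked. Alternatives were other filters, normalisations, moderation, array weights, a sex term, the replicate number as a block, only the groups compared, and leaving out each array. Sex was inferred from the signal of Xist and of Y-linked genes. By this, 1 of 3 WT mice, 1 of 2 E2AKO, 1 of 2 HEBKO and 2 of 3 DKO mice were female.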

Additional observations from a re-analysis of the deposited data

How the results depend on the processing

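The count of precursors called in DKO against WT, 2 in the report, was 0 with a filter at the 60th percentile (which neither Mir342 nor Mir128-2 passes), 4 after renewed quantile normalisation, 1 with every probe set fitted and 14 with array weights, a fit that did not converge fully. Leaving out single arrays gave 2 to 5, with 5 without WT 2, and Mir342 and Mir128-2 were called each time. In HEBKO against WT the count of 1 became 0 after a shift to 1 median, with every probe set fitted, with the replicate block, with a term for sex or with only the 2 groups compared, and 0 to 2 without single arrays. In E2AKO it was 0 in all 21 alternatives. For DKO against HEBKO it was 1 at the 60th percentile, 0 with every probe set fitted and 0 to 3 without single arrays. For DKO against E2AKO it was 1 at the 60th percentile, 1 with every probe set fitted and 1 to 5 without single arrays. Pathway genes called in DKO numbered 2 after the shift, 0 with every probe set fitted, 9 with array weights, 3 with the sex term and 0 to 4 without single arrays. Mir142 in DKO reversed to -0.05 with array weights, and Rtl1 to 0.04 with array weights, 0.02 without WT 1 and 0.06 without DKO 3 (range -0.09 to 0.06 over single arrays left out). The cause was not tested for any of these, beyond the genes removed by the stricter filter.

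Replicate numbers are shared between groups. Correlations of deviations from the group means over 13 same-numbered pairs ran from -0.29 to 0.48, with 10 over 0.1. Pairs with different numbers ran from -0.48 to 0.41. In the groups of 2 arrays the deviations mirror each other, so these correlations are not independent. Whether arrays of the same number share a source of variation was not tested. The main fit did not pair them, and the replicate block is given as an alternative. With the replicate block the counts were 2 in DKO against WT, 0 in HEBKO against WT and 0 in E2AKO against WT. They were 2 in DKO against HEBKO and 5 in DKO against E2AKO. Members near the 40th percentile, Mir342 and Mir713 among them, are limited by signal over background.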
